A study of Mus musculus with 2 samples.

Results

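The genes described here encode 9 enzymes of sugar metabolism: Pck1, Fbp1, G6pc and Khk, which act in gluconeogenesis or fructose use, and Ldha, Pgk1, Aldoa, Pfkl and Gapdh, which act in glycolysis. They were chosen as a list of gene symbols and looked up in both count matrices, where they are 9 of 52636 gene IDs. The study compared intestinal cells of 2 mouse embryos of stage E18.5, sequenced cell by cell, on the C57BL/6 background. The control embryo was Mlkl -/-, lacking the effector of necroptosis, and is called Mlkl-null below. The other embryo was Casp8 C362A/C362A Mlkl -/-, with a caspase-8 that lacks its catalytic cysteine, and is called Casp8-mutant below. Both embryos thus lacked Mlkl, no embryo with Mlkl and no wild-type embryo was compared, and each group is 1 embryo and 1 library. Which stretch of gut was taken is unclear, since 1 label field names the whole intestine and another the small intestine.

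Glycolysis splits glucose into pyruvate in the cytosol, and lactate dehydrogenase turns pyruvate into lactate when pyruvate does not enter the mitochondria. Gluconeogenesis runs the shared steps backwards and bypasses the irreversible ones with its own enzymes, which are best known from liver and kidney and are also made by enterocytes, the absorptive cells of the gut. Enterocytes take up fructose as well and phosphorylate it with ketohexokinase before it enters the triose phosphates. In the embryonic gut the absorptive programme is switched on before birth, along the villus and from progenitors to mature cells.

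The Mlkl-null library held 1478 barcodes with a median of 3654 unique molecular identifiers (UMIs, counted transcripts), and the Casp8-mutant library held 1014 with a median of 1797.5. After the filters 1435 and 873 cells remained, of which 1183 and 576 were epithelial-like by their markers, with 5317470 and 1987218 UMIs. The libraries also differed by sex, as read from Xist at 2 and 8478 UMIs and Ddx3y at 277 and 2, so sex, embryo, library and genotype cannot be told apart here. Mlkl had 1 and 13 UMIs, and Casp8 401 and 235, where a count of transcript ends cannot show an exchange of 1 amino acid. The epithelial-like cells of the libraries lay in clusters that were almost wholly of 1 library each: clusters 0, 1, 3, 5, 6, 11 and 12 for Mlkl-null, and 2, 4, 8, 9 and 19 for Casp8-mutant, with 5 Mlkl-null cells in cluster 2 and 6 in cluster 8. The 12 enterocyte markers summed to 51034 counts per 1000000 UMIs (CPM) in Mlkl-null and 12082 in Casp8-mutant epithelial-like cells. Of the 12, 10 were at least 1.5-fold lower, as were 34.8% of all genes with at least 50 UMIs there. None of the 12 was at 0 in either library. The 8 goblet markers summed to 8502 and 27383 CPM, the 8 granulocyte markers to 21.4 and 3169 CPM, and the 10 pan-epithelial markers to 8034 and 7958 CPM. The part of cell maturity, cell mixture, depth and sex in the differences below was not tested beyond the values given beside each. With 1 embryo per group there is no test: genes are called higher or lower in Casp8-mutant by size alone, at 1.5-fold or more with at least 50 UMIs over both libraries. All intervals are 95% and cover counting error only, not the spread between embryos.

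The promoters of 4 members are shown because they carry sequence motifs that differ between the members: Pck1 and Khk from the genes that were lower, Pgk1 from those that were higher, and Ldha, whose level was similar. Each runs from 250 bases before to 50 after the annotated RefSeq start on GRCm38.p6, read 5′ to 3′ on the gene's strand. Capitals mark every TGACG, the core of the cAMP response element, and every ACGTG on either strand. ACGTG is 1 of 2 forms of the core of the hypoxia response element. The other form, GCGTG, is not marked. It occurred at 2 places in the upstream Ldha window and in none of the other windows shown. The Pck1 window (chr2:173152823-173153122, plus strand) held 1 TGACG and no ACGTG. The Khk window (chr5:30921309-30921608, plus strand) held 1 TGACG overlapping 1 CACGTG, the E box, which contains ACGTG on both strands. The upstream Ldha window (chr7:46845554-46845853, plus strand) held ACGTG at 3 places, of which 2 were CACGTG, and TGACG at 1. The Pgk1 window (chrX:106186850-106187149, plus strand) held ACGTG at 2 places and no TGACG.
Pck1: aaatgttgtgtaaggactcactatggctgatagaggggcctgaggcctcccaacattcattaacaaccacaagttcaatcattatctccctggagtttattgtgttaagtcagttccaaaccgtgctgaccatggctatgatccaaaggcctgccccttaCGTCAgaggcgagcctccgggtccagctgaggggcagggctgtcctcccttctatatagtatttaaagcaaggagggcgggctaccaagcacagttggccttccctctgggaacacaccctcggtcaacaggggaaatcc
Khk: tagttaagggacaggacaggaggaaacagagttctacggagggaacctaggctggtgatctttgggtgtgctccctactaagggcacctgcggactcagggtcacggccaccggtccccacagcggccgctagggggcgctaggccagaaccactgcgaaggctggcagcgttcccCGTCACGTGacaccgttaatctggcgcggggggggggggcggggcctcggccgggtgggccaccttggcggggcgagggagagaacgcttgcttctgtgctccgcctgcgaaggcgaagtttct
Ldha: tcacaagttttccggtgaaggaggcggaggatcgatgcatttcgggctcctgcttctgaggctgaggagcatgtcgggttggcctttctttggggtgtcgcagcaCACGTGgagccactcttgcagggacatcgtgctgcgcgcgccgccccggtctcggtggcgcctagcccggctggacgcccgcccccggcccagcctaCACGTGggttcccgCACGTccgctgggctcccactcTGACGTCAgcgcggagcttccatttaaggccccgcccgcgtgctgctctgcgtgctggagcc
Pgk1: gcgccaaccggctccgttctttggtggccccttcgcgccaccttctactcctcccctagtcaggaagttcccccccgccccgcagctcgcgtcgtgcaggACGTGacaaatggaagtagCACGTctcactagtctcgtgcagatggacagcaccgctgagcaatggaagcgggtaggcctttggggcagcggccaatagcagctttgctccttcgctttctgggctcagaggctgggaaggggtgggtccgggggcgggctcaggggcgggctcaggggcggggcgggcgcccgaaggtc
Of 32851 RefSeq promoter windows of this length, 19.6% held ACGTG, 32.4% GCGTG, 20.8% TGACG and 7.15% CACGTG, so each motif is common. The windows of Fbp1, G6pc and Pfkl, all without a shown sequence, held neither TGACG nor ACGTG, and nor did 1 window of Aldoa. The other Aldoa windows and the Gapdh window held ACGTG at 1 place each and no TGACG. The second Ldha window held 1 TGACG and no ACGTG. The motifs thus did not sort the members by direction of change. The match of letters is a description of the window and not of any factor bound there.

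In epithelial-like cells 4 of the 8 measured members were lower in Casp8-mutant, where 34.8% of 10780 measured genes were lower, and 2 were higher, where 23.6% of genes were higher. The median log2 ratio of the measured members was −0.51 against −0.23 over all measured genes. The lower members were Pck1, Fbp1, Khk and Pfkl, and the higher members were Pgk1 and Gapdh. Ldha and Aldoa passed neither fold, and G6pc had too few UMIs to be called. The same 4 were lower and the same 2 higher over all cells, where the shares of 11866 genes were 33.4% and 23.7%.

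**Figure D1:**
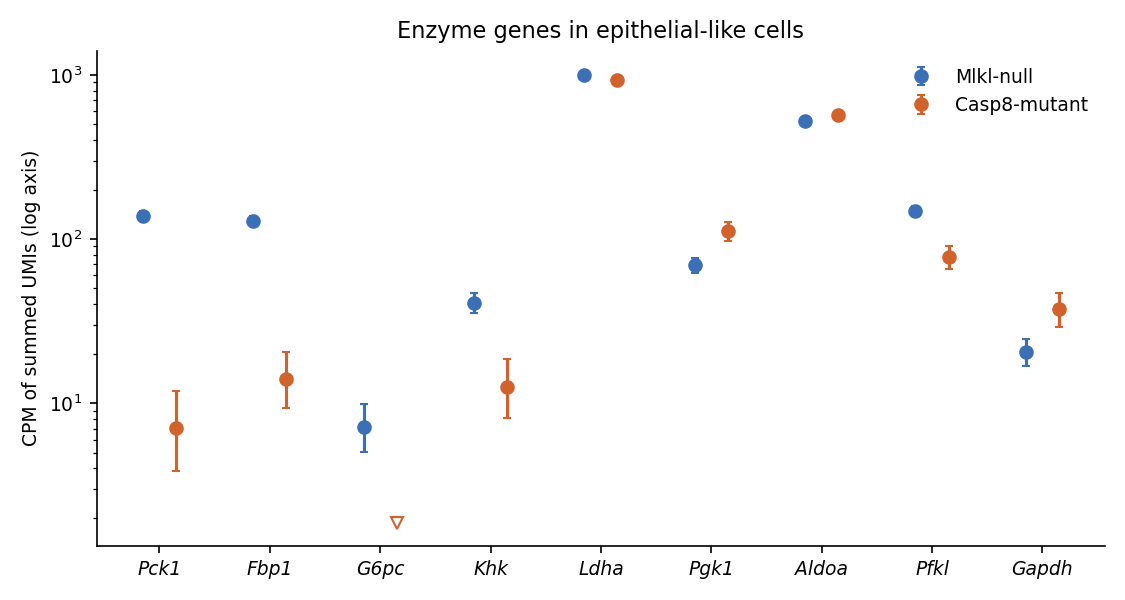
Level of each enzyme gene in epithelial-like cells, in CPM of the UMIs summed over cells on a log axis, for the Mlkl-null (blue) and Casp8-mutant (orange) libraries. Bars are exact Poisson 95% intervals for counting error with 1 library per group, and the open triangle is the upper limit for G6pc at 0 UMIs. Pck1, Fbp1 and Khk sit well below their Mlkl-null level in Casp8-mutant, while Ldha (994 and 924 CPM) and Aldoa (521 and 569 CPM) lie close together.

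Pck1 (ENSMUSG00000027513, chr2:173153048-173159273, plus strand) encodes cytosolic phosphoenolpyruvate carboxykinase, which commits oxaloacetate to glucose synthesis. It had 733 UMIs in Mlkl-null epithelial-like cells, or 138 CPM (128 to 148), and 14 UMIs in Casp8-mutant, or 7.05 CPM (3.85 to 11.8). The level was 18.9-fold lower in Casp8-mutant (11.6 to 36.0), and 29 of the 10780 measured genes had a lower ratio. Of its UMIs, 96.3% of 761 in Mlkl-null and 93.3% of 15 in Casp8-mutant lay in epithelial-like cells. Those cells held 5317470 of the 6172180 UMIs of all genes in Mlkl-null and 1987218 of 2601326 in Casp8-mutant. Most UMIs of an evenly read gene would thus lie there too. With every cell reduced at random to 2000 UMIs (thinned), 23.6% of 1053 Mlkl-null epithelial-like cells and 1.16% of 344 Casp8-mutant cells (0.318% to 2.95%, Clopper-Pearson) held a Pck1 UMI, with 130 and 232 shallower cells left out. The shares before thinning were 38.7% and 2.43%, at median depths of 3905 and 2515 UMIs. In erythroid-like cells, which should lack the gene, a UMI was found in 1 of 20 Mlkl-null cells thinned alike. It was found in 0 of 4 Casp8-mutant cells, which allows a share of up to 60.2%. At this depth the few Casp8-mutant UMIs thus cannot be set apart from free RNA by that comparison. Median depths of these erythroid-like cells were 3148 and 1574 UMIs.

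Fbp1 (ENSMUSG00000069805, chr13:62864753-62888282, minus strand) encodes fructose-1,6-bisphosphatase, which bypasses the phosphofructokinase step. It had 684 UMIs in Mlkl-null epithelial-like cells, or 129 CPM (119 to 139), and 28 in Casp8-mutant, or 14.1 CPM (9.36 to 20.4). That is 8.98-fold lower (6.26 to 13.8), and 87 measured genes had a lower ratio. This fold moved with the treatment of shallow cells: the log2 ratio of −3.17 became −4.07 with at least 1000 genes per cell and −4.62 with cells thinned to 2000 UMIs, and −2.56 when every cell weighed the same. Of the 28 Casp8-mutant UMIs, 23 were in cluster 4, a cluster of enterocyte-like cells with a median of 1613 UMIs. After thinning, 23.2% of Mlkl-null and 0.872% of Casp8-mutant epithelial-like cells held a UMI, against 36.8% and 4.51% before. The share was 0 of 20 in Mlkl-null erythroid-like cells, which allows up to 16.8%.

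G6pc (ENSMUSG00000078650, chr11:101367561-101377903, plus strand) encodes the catalytic subunit of glucose-6-phosphatase, which releases free glucose at the last step. It had 38 UMIs in Mlkl-null epithelial-like cells, or 7.15 CPM (5.06 to 9.81), and 0 in Casp8-mutant. With the 0 set at a floor of 3 counts over the class it was at least 4.73-fold lower, and at 38 UMIs in all it stayed under the minimum for a call. Of its 39 UMIs over all Mlkl-null cells, 38 were epithelial-like, a class that held 5317470 of the 6172180 UMIs of all genes.

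Khk (ENSMUSG00000029162, chr5:30921431-30931248, plus strand) encodes ketohexokinase, the first enzyme of fructose use. It had 217 UMIs in Mlkl-null epithelial-like cells, or 40.8 CPM (35.6 to 46.6), and 25 in Casp8-mutant, or 12.6 CPM (8.14 to 18.6). The level was 3.19-fold lower (2.14 to 5.12). After thinning, a UMI was found in 6.84% of Mlkl-null and 1.74% of Casp8-mutant epithelial-like cells, against 15.5% and 3.99% before. Khk had the lowest epithelial share of these genes in both libraries, with 83.1% of its 261 UMIs in Mlkl-null and 51.0% of its 49 in Casp8-mutant. Of the UMIs of all genes, epithelial-like cells held 5317470 of 6172180 in Mlkl-null and 1987218 of 2601326 in Casp8-mutant.

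Among the glycolytic genes, Pfkl (ENSMUSG00000020277, chr10:77986947-78010083, minus strand), the liver-type subunit of phosphofructokinase, was the member that was lower. It had 783 and 154 UMIs in epithelial-like cells, or 147 CPM (137 to 158) in Mlkl-null and 77.5 CPM (65.7 to 90.7) in Casp8-mutant, which is 1.90-fold lower (1.60 to 2.27). Fbp1 and Pfkl encode the opposing enzymes of 1 step, and both were lower, by different folds. Other genes listed for that step differed: Fbp2 was at 493 and 192 CPM, above Fbp1 in both libraries, and was 2.57-fold lower. Pfkp passed neither fold, at 67.5 and 75.5 CPM, and Pfkm had too few UMIs for a call. These other genes are outside the rule for named genes and were chosen after their values were seen. The share of cells with a Pfkl UMI after thinning was 24.8% in Mlkl-null and 14.2% in Casp8-mutant.

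Aldoa and Ldha encode aldolase A, which cleaves fructose 1,6-bisphosphate, and the A subunit of lactate dehydrogenase. Aldoa (ENSMUSG00000030695, chr7:126795234-126800751, minus strand) had 2769 and 1131 UMIs, or 521 CPM (502 to 541) in Mlkl-null and 569 CPM (536 to 603) in Casp8-mutant, a ratio of 1.09 (1.02 to 1.17). Ldha (ENSMUSG00000063229, chr7:46841475-46855627, plus strand) had 5287 and 1836 UMIs, or 994 CPM (968 to 1021) and 924 CPM (882 to 967), a ratio of 0.93 (0.88 to 0.98). Neither passed the fold, and the sign of the small Ldha ratio turned with the processing: its log2 ratio of −0.11 became 0.14 when every cell weighed the same. After thinning, 83.9% and 79.1% of cells held an Ldha UMI, and 61.1% and 69.2% an Aldoa UMI. In 42 of 1808 windows of 90 bases at its transcript ends (2.32%) Ldha shares its sequence with 2 pseudogenes, which held 7 and 6 epithelial-like UMIs and leave the ratio at 0.93.

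Pgk1 (ENSMUSG00000062070, chrX:106187100-106203699, plus strand) encodes phosphoglycerate kinase, which makes the first ATP of glycolysis. It had 367 and 221 UMIs, or 69.0 CPM (62.1 to 76.5) in Mlkl-null and 111 CPM (97.0 to 127) in Casp8-mutant, and was 1.61-fold higher (1.36 to 1.91). The gene is X-linked and the libraries differ by sex; the part of sex was not tested. Of 4 other X-linked genes measured in the pathway lists, G6pdx was 2.05-fold higher and Gk 2.94-fold lower. The others, Pdha1 and Pdk3, passed neither fold, at ratios of 0.68 and 0.74. A Pgk1 UMI was found in 12.9% of Mlkl-null and 19.8% of Casp8-mutant cells after thinning.

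Gapdh (ENSMUSG00000057666, chr6:125161715-125166467, minus strand), which encodes the enzyme that oxidises glyceraldehyde 3-phosphate, shares most of its transcript ends with other annotated genes. It had 109 and 74 UMIs in epithelial-like cells, or 20.5 CPM (16.8 to 24.7) in Mlkl-null and 37.2 CPM (29.2 to 46.7) in Casp8-mutant, and was 1.82-fold higher (1.33 to 2.46). Of the 1336 windows of 90 bases in the last 500 bases of its coding transcripts, 756 (56.6%) also occur in transcripts of 74 other genes, 72 of them annotated pseudogenes. The 73 of these that the matrices list held 956 and 683 epithelial-like UMIs, far more than Gapdh itself. Gene and copies together gave 200 CPM in Mlkl-null and 381 CPM in Casp8-mutant, a ratio of 1.90 (1.73 to 2.09), close to that of the gene alone. The level of Gapdh in these matrices is therefore uncertain, while gene and copies moved by similar ratios.

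Within the epithelium the levels of Pck1 and Fbp1 varied widely between clusters. In Mlkl-null the highest Pck1 level, 452 CPM (394 to 516), and the highest Fbp1 level, 403 CPM (348 to 464), were in cluster 3, led by the apolipoprotein genes Apoa4, Apoc2 and Apoc3. The lowest were in cluster 6, led by Edn1, Ccnd2 and ribosomal protein genes, at 24.0 CPM (15.2 to 36.0) for Pck1 and 17.7 CPM (10.3 to 28.4) for Fbp1. Cluster 1, led by Gpx3, Afp and Guca2a and holding Fabp6, a bile acid binding protein gene of the distal gut, had 86.8 CPM of Pck1 and 187 CPM of Fbp1, so the order of the pair across clusters differed. Cluster 5, led by Rn7sk, a small nuclear RNA gene, and Gm26917, had 284 CPM of Pck1 and 142 of Fbp1. Cluster 12, led by the goblet genes Tff3, Spink4 and Agr2, had 45.5 and 37.1. In Casp8-mutant, cluster 4, led by Gpx3, Apoa1 and Apoa4, had 27.2 CPM of Pck1 (11.7 to 53.6) and 78.2 of Fbp1 (49.5 to 117). Cluster 2, the largest of that library with 184 cells, had 1.03 CPM of Pck1 (0.0262 to 5.76, from 1 UMI) and 2.07 of Fbp1 (0.251 to 7.47, from 2 UMIs).

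Khk and Pfkl had another order. Khk was highest in Mlkl-null cluster 11, at 78.1 CPM (55.5 to 107), and cluster 0, at 59.2 (46.1 to 74.7), and was at 26.9 (14.3 to 45.9) in cluster 3, where Pck1 was highest. Pfkl was highest in Mlkl-null cluster 6, at 197 CPM (170 to 227), and was at 99.2 (73.1 to 131) in cluster 3. Pgk1 was likewise highest in clusters 11 and 6, at 98.1 and 93.8 CPM, and lowest in cluster 3, at 22.7 CPM. Ldha ranged from 727 to 1146 CPM over the Mlkl-null clusters and from 727 to 1274 over the Casp8-mutant clusters of at least 20 cells.

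**Figure D2:**
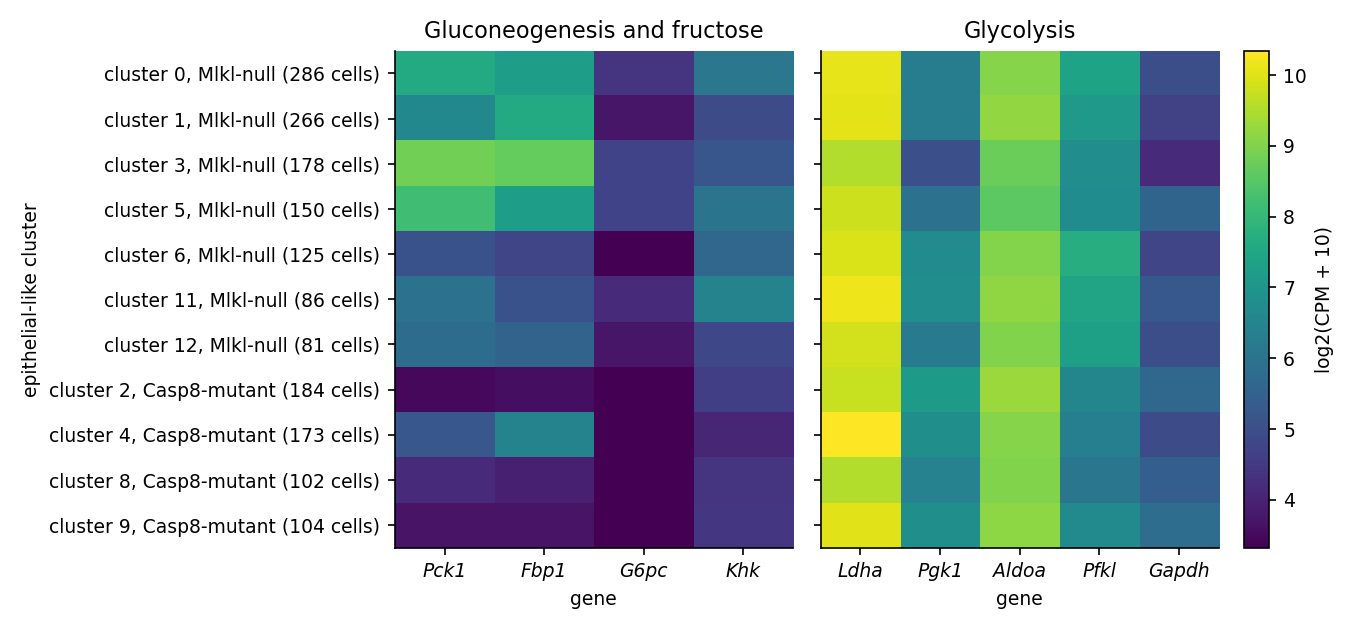
Heat map of log2(CPM + 10) for each enzyme gene (columns) in each epithelial-like cluster of at least 20 cells of 1 library (rows, with cell numbers), with genes of gluconeogenesis and fructose use at left and of glycolysis at right. Pck1 and Fbp1 run from 452 and 403 CPM in Mlkl-null cluster 3 to 1.03 and 2.07 CPM in Casp8-mutant cluster 2, while the Ldha column varies little.

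Because the enterocyte markers were lower in Casp8-mutant, the members were also compared within fixed bands of the summed enterocyte marker level of each cell. The bands cut a continuous score, and 104 Mlkl-null and 43 Casp8-mutant cells lay within 10% of a band edge. Over the whole class the 12 markers ranged from 41.8-fold lower (Fabp1) to a ratio of 1.12 (Anpep). Like sums can thus be made up of different genes and do not show like cells. The make-up of the sum within each band was not tested. The lowest band, under 10000 CPM, held 13.6% of Mlkl-null and 53.6% of Casp8-mutant epithelial-like cells, and the band over 30000 CPM held 67.9% and 27.3%. The band of 10000 to 30000 CPM held 219 and 110 cells with like median marker levels, 18976 and 18458 CPM. There Pck1 was at 49.3 CPM (61 UMIs) in Mlkl-null and 15.3 CPM (4 UMIs) in Casp8-mutant, which is 2.89-fold lower (1.20 to 12.2) where the whole class gave 18.9-fold. Fbp1 was at 59.0 CPM (73 UMIs) and 30.6 CPM (8 UMIs), 1.83-fold lower (0.928 to 4.63), an interval that includes no difference. Both genes were thus lower here too, by smaller folds than over the class, and the difference between these folds was not tested.

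In the next range, 30000 to 60000 CPM, an edge added after the data were seen, the medians were again alike at 42661 and 40732 CPM over 208 and 88 cells. Pck1 was at 103 and 20.4 CPM (94 and 3 UMIs), 4.35-fold lower (1.68 to 24.9), and Fbp1 at 142 and 67.8 CPM (130 and 10 UMIs), a ratio of 0.50 (0.22 to 0.91). Khk had 44 UMIs in Mlkl-null, or 48.1 CPM, and 0 in Casp8-mutant. That is 2.36-fold lower against a floor of 3 counts, with a lower interval limit of 1.84-fold, though under the minimum for a call. Above 60000 CPM the medians differed, at 104928 and 75117 CPM over 595 and 69 cells. There Pck1 was at 280 and 31.9 CPM (553 and 3 UMIs) and Fbp1 at 233 and 74.3 CPM (459 and 7 UMIs). Pck1 thus increased with the marker level in Mlkl-null, from 20.9 CPM in the lowest band to 280 in the highest. In Casp8-mutant its level in the highest range was 31.9 CPM (6.57 to 93.1), with too few UMIs to show a trend.

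Among the glycolytic genes, Pfkl was lower in Casp8-mutant by similar factors in every range: 2.29-fold (1.82 to 2.90) under 10000 CPM, 1.77-fold (1.19 to 2.84) from 10000 to 30000 and 1.96-fold (1.05 to 4.62) from 30000 to 60000. Above 60000 CPM, with 4 Casp8-mutant UMIs, it was 2.56-fold lower (1.11 to 10.6). The Pgk1 ratio lay between 1.27 (0.991 to 1.63) and 1.61 (1.03 to 2.40) in the 3 bands first set. Ldha went from a ratio of 0.87 (0.80 to 0.95) under 10000 CPM to 1.04 (0.91 to 1.18) from 10000 to 30000 and 1.36 (1.21 to 1.53) over 30000, where the median marker levels differed at 90909 and 54439 CPM. Above 60000 CPM its ratio was 1.56 (1.30 to 1.84). Gapdh was 2.02-fold higher (1.28 to 3.35) in the lowest band, and with 5 and 3 Casp8-mutant UMIs in the others its ratio intervals were 0.294 to 2.64 and 0.122 to 1.86.

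**Figure D3:**
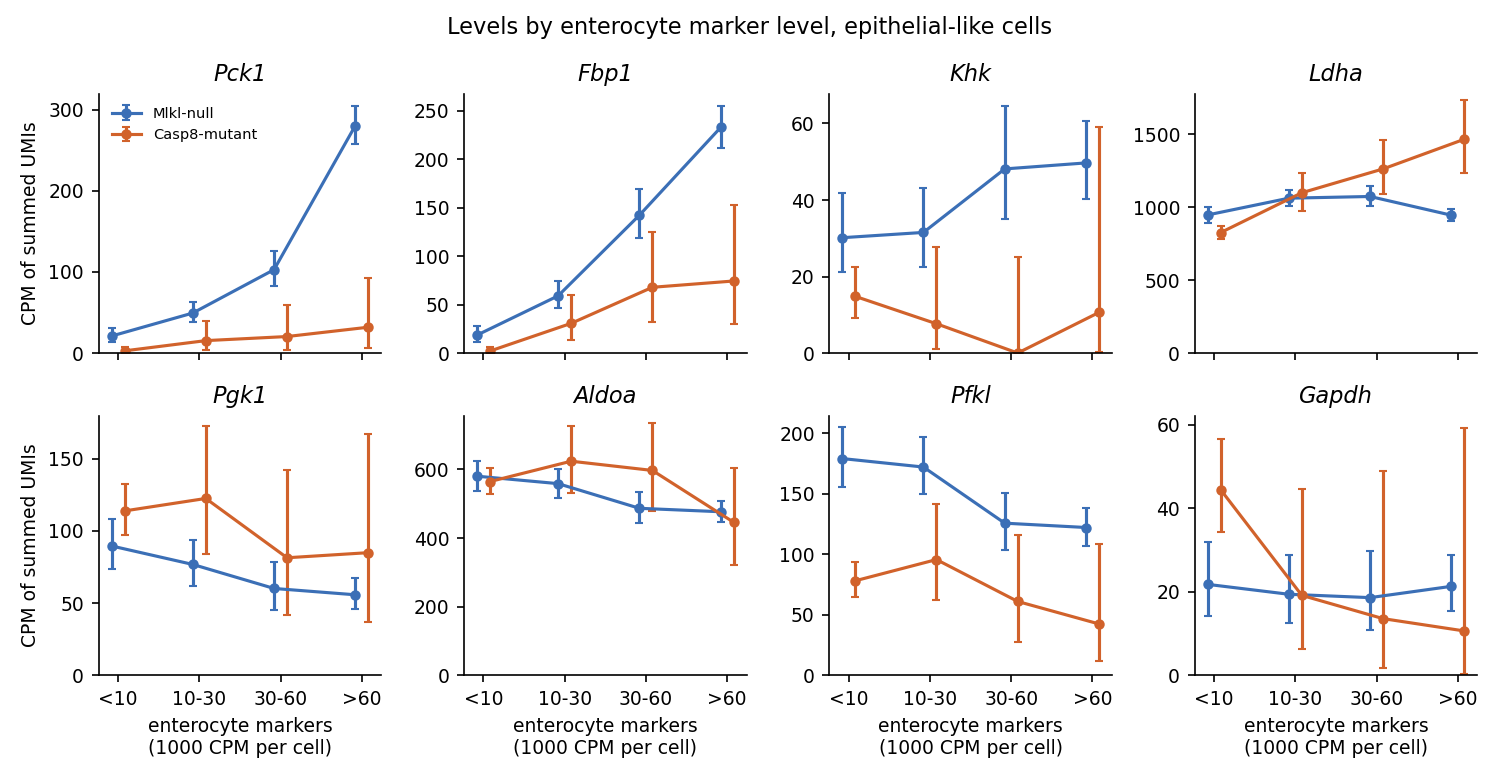
Level of 8 enzyme genes in CPM of summed UMIs (vertical axis, from 0) in epithelial-like cells grouped by their summed enterocyte marker level (horizontal axis, in CPM per cell divided by 1000), with exact Poisson 95% intervals, for Mlkl-null (blue) and Casp8-mutant (orange). Pck1 climbs to 280 CPM in Mlkl-null, while the Casp8-mutant level in the highest range, 31.9 CPM, rests on 3 UMIs. Pfkl is lower in Casp8-mutant at each level, and the Ldha ratio is 1.36 over 30000 CPM.

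The epithelial-like cells were also regrouped after each gene was centred within its library, which gave 11 groups, 5 of them with at least 20 cells of each library. Group E1 (153 and 134 cells), led in both libraries by Gpx3, Lgmn, Afp and Meltf, had enterocyte markers at 52839 and 42288 CPM, closer together than over the whole class. In it Pck1 was at 156 and 26.2 CPM (84 and 6 UMIs), 5.52-fold lower (2.62 to 16.7), and Fbp1 at 314 and 87.4 CPM (169 and 20 UMIs), 3.51-fold lower (2.25 to 6.03). Ldha in E1 went the other way, from 817 CPM (742 to 897) to 1285 CPM (1142 to 1440.2), 1.57-fold higher (1.35 to 1.83). Pfkl was at 74.3 and 69.9 CPM there, a ratio of 0.96 (0.49 to 1.72), so its lower level over the class was not detected in this group.

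In the other groups the Pck1 ratio was below 1 as well, from fewer UMIs. Group E3, led by Gm26917 and Rn7sk, had 95 Pck1 UMIs in 124 Mlkl-null cells and 0 in 83 Casp8-mutant cells. That is 24.8-fold lower against the floor of 3 counts, with a lower interval limit of 19.8-fold. The enterocyte markers of E3 were at 83694 and 11933 CPM. Group E4, led by the goblet genes Tff3 and Spink4, had 28 and 5 UMIs of Pck1, too few for a call, with a ratio of 0.30 (0.083 to 0.72), and Pfkl was 2.16-fold lower (1.33 to 3.76). Group E9, led by Anpep and Dbi with enterocyte markers at 39587 and 37208 CPM, had 29 and 1 UMIs of Pck1, a ratio of 0.23 (0.0039 to 0.95), and 34 and 1 of Khk, a ratio of 0.20 (0.0033 to 0.80), both under the minimum for a call. Pgk1 was 1.98-fold higher (1.04 to 3.52) and Pfkl 2.52-fold lower (1.25 to 6.86) in E9. In E3 Pfkl passed neither fold, with 32 and 22 UMIs and a ratio of 0.88 (0.49 to 1.56), as in E1. Group E10 held 7 and 0 UMIs of Pck1.

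Outside the epithelium Ldha and Aldoa were the members that could be measured in the classes compared. Stromal-like cells (63 and 58) were those of clusters 10 and 18, both named fibroblast-like. Cluster 10 held 54 Mlkl-null and 33 Casp8-mutant cells, and cluster 18 held 9 and 25, so the mixture differed between the libraries. In stromal-like cells 2 members could be measured: 1 was lower, where 25.3% of 1355 genes were lower, and none higher, where 24.6% were. Ldha was at 727 CPM (627 to 838) in Mlkl-null and 453 CPM (354 to 570) in Casp8-mutant, 1.60-fold lower (1.22 to 2.14), and Aldoa at 585 and 497 CPM, a ratio of 0.85 (0.64 to 1.12). Pck1 had 6 and 0 UMIs and Fbp1 4 and 1. The median depths of these cells were 2411 and 1556 UMIs.

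In myeloid-like cells (61 and 108), of which most Mlkl-null cells were in cluster 16 and all Casp8-mutant cells in cluster 7, 2 members could be measured and neither changed by 1.5-fold, where 27.9% of 1192 genes were higher and 19% lower. Ldha was at 816 and 787 CPM, a ratio of 0.96 (0.76 to 1.22), and Aldoa at 865 and 707 CPM, a ratio of 0.82 (0.65 to 1.04). Khk, with 32 and 7 UMIs, fell short of the 50 needed for a call, at 173 CPM (118 to 244) in Mlkl-null and 37.0 CPM (14.9 to 76.1) in Casp8-mutant. Its level in Mlkl-null myeloid-like cells was above that in Mlkl-null epithelial-like cells, 40.8 CPM (35.6 to 46.6), beyond counting error. A Khk UMI was found in 30.2% of 53 thinned Mlkl-null myeloid-like cells (18.3% to 44.3%) and in 3 of 33 Casp8-mutant ones. It was found in 0 of 20 Mlkl-null erythroid-like cells, which allows up to 16.8%. Shares before thinning were 39.3% and 5.56% in myeloid-like cells at median depths of 2825 and 1543 UMIs.

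In the classes with fewer than 50 cells in a library only levels are given. Endocrine-like cells (36 and 34) had 11 and 0 UMIs of Pck1 and 8 and 0 of Fbp1, with Ldha at 664 and 555 CPM. Granulocyte-like cells (15 and 53) had Ldha at 877 and 1125 CPM and Aldoa at 993 and 628 CPM, with no Pck1 UMI in either library. Enteric-neuron-like cells (49 and 10) had Ldha at 917 and 371 CPM, and erythroid-like cells (20 and 25) had it at 211 and 100 CPM. A Casp8-mutant cluster of 7 cells led by Alb, Trf and Ahsg, genes of plasma proteins made by the liver, was left unnamed; it held 10 of the 40 Fbp1 UMIs of that library, or 627 CPM, and 1 Pck1 UMI. Without those 7 cells the log2 ratio of Fbp1 over all cells went from −2.87 to −3.27.

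Of the other genes of gluconeogenesis and fructose use, 17 of 19 could be measured in epithelial-like cells. Of these, 14 were lower, 3 passed neither fold and none was higher, where 34.8% of all genes were lower and 23.6% higher. Their median log2 ratio was −1.48 against −0.23 over all genes. Lowest were Slc2a2, the basolateral glucose and fructose transporter gene, at 51.5 and 2.52 CPM (18.7-fold lower), Gpt, an alanine aminotransferase gene (10.1-fold lower), and Gpd1, a cytosolic glycerol-3-phosphate dehydrogenase gene (9.11-fold lower). The 3 that passed neither fold were Got1, a cytosolic aspartate aminotransferase gene, at 50.4 and 42.8 CPM, Pck2, the mitochondrial counterpart of Pck1, at 14.3 and 11.1 CPM, and Sord, which encodes sorbitol dehydrogenase, at 54.0 and 42.3 CPM. Among the 16 enterocyte genes outside these pathways 13 were lower and none higher, beside the same shares over all genes. Their median log2 ratio was −1.83, so lower values were found outside sugar metabolism too. Of these 16, 12 are also the enterocyte markers. Among those, Fabp1, which encodes a fatty acid binding protein, was 41.8-fold lower, Lct, the lactase gene, 19.2-fold lower and Rbp2 9.89-fold lower, while Anpep was at 630 and 709 CPM.

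Of the 27 other glycolytic genes listed, 19 could be measured: 4 were higher, 6 were lower and 9 passed neither fold, and the median log2 ratio was −0.08. These shares are near those over all genes in epithelial-like cells, 23.6% higher and 34.8% lower. Slc16a3, the lactate exporter gene, had 10.5 CPM in Mlkl-null and 66.4 CPM in Casp8-mutant, 6.28-fold higher (4.58 to 8.78). Hk2, a hexokinase gene, had 46.8 and 268 CPM and was 5.72-fold higher (4.92 to 6.68). Pkm, the pyruvate kinase gene of most tissues, was at 179 and 346 CPM, 1.93-fold higher (1.74 to 2.13), while Pklr, the pyruvate kinase gene of liver and erythrocytes, was at 352 and 119 CPM, 2.96-fold lower. The pair thus went in opposite directions in sums over the epithelial-like class, which do not show both changes within the same cells. Pklr is outside the rule for named genes and was chosen after its value was seen. Lowest were Pgam2, with a ratio of 0.13 (0.023 to 0.35) from 69 and 3 UMIs, and Aldoc and Pfkfb2, 4.46-fold and 3.23-fold lower from 7 and 5 Casp8-mutant UMIs. The fourth higher gene was Eno1b, which shares 67.4% of its windows with other genes as Eno1 shares 60.3%, so the enolase counts are uncertain between them.

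**Figure D4:**
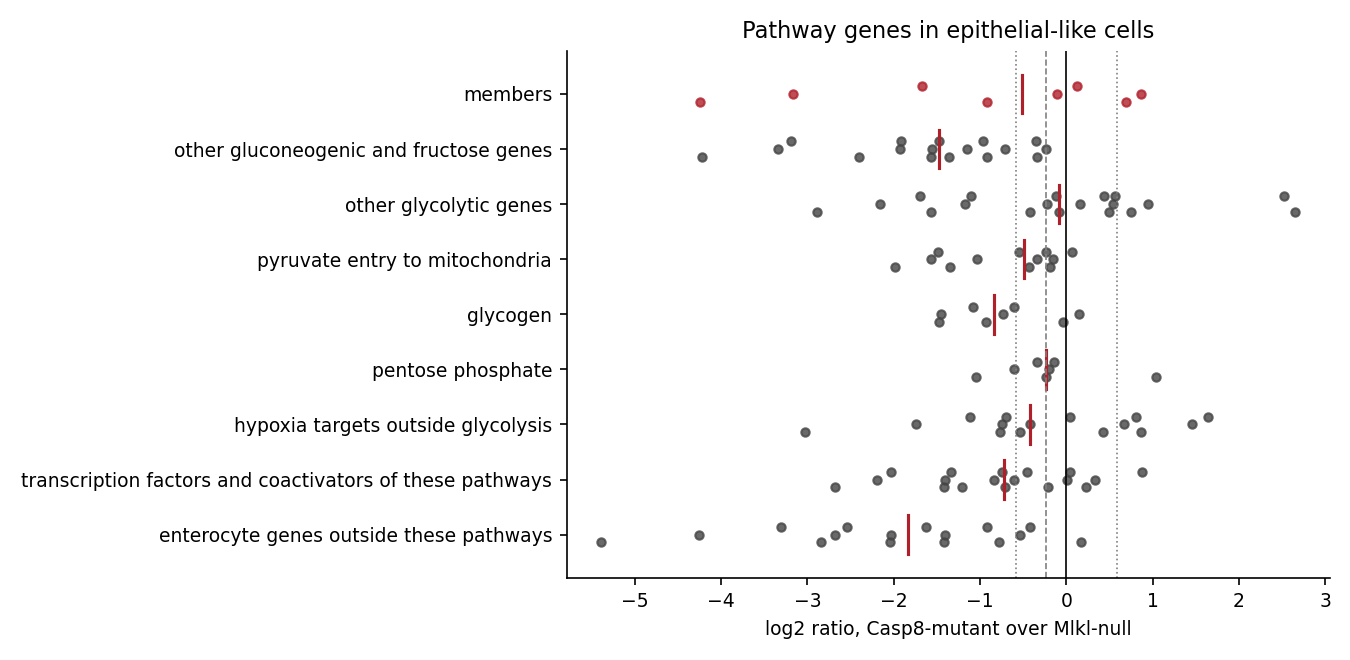
Log2 ratio of Casp8-mutant over Mlkl-null in epithelial-like cells for each measured gene (points) of each list (rows), with the list's median as a red bar, the members' row in red, the 1.5-fold limits dotted and the median of all genes dashed at −0.23. The gluconeogenic and fructose genes lie to the left with a median of −1.48, near the enterocyte genes at −1.83, and the glycolytic genes spread on both sides of 0.

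Of 12 measured genes for pyruvate entry to mitochondria 5 were lower and none higher, where 34.8% of all genes were lower and 23.6% higher. These included the kinase genes Pdk2 and Pdk4, which switch off pyruvate dehydrogenase, 3.97-fold and 2.97-fold lower, and Pdp2, a phosphatase gene that switches it on, 2.79-fold lower. Highest in that list were Pdk1, at 27.6 and 28.7 CPM, Pdhb and Dld, none past the fold. Of 8 glycogen genes 6 were lower, led by Gbe1, Ugp2 and Pgm1 at 2.79-fold, 2.73-fold and 2.11-fold, and Gys1 and Pgm2 had ratios of 0.66 and 0.98. Of 7 pentose phosphate genes, X-linked G6pdx was higher, Rpia and Rpe were lower at 2.06-fold and 1.52-fold, and Pgls, Tkt, Pgd and Taldo1 passed neither fold.

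Of the 15 hypoxia targets outside glycolysis that were measured, 5 were higher and 6 lower, with a median log2 ratio of −0.42, again near the 23.6% and 34.8% of all genes. Mif, Higd1a and Adm were highest, at 3.12-fold, 2.75-fold and 1.82-fold, where 47.2% of the windows of Mif are shared with other genes. Ndrg1, Kdm3a and Bnip3 were lowest, at 8.15-fold, 3.35-fold and 2.17-fold lower. Of 18 measured transcription factor and coactivator genes of these pathways 11 were lower, where 34.8% of all genes were, and 1, Myc, was higher at 1.83-fold, where 23.6% were. Ppargc1a, a coactivator of gluconeogenic genes, was at 40.2 and 6.04 CPM, 6.41-fold lower (214 and 12 UMIs), Ppara 4.56-fold lower (91 and 7 UMIs), and Creb3l3, a gene of liver and gut lipid and sugar control, 4.08-fold lower. Hnf4a, which encodes a nuclear receptor of liver and gut, was at 112 CPM in both libraries, with a ratio interval of 0.85 to 1.17, and Epas1 and Crtc2 had ratios of 1.26 and 1.17.

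Across 12 sums of UMIs, 1 for each class and library with at least 20 cells, the genes with levels much like those of Pck1 included Gsta2 (Pearson's r of log2(CPM + 10) 0.963) and Fabp1 (0.962). Those most like Fbp1 were Paqr7 (0.959), Scin (0.940) and Yif1a (0.939), and those most like Khk were Tgif1 (0.847), Gtf3a (0.841) and Ostf1 (0.840). For Aldoa the list was led by Pkm (0.964), the pyruvate kinase gene of the same pathway, followed by Anapc16 and Sys1. Pgk1 was most like Actg1 (0.971), Prmt5 and Mfsd5, Ldha most like Zfp706 (0.957), Ncln and Rlim, Pfkl most like Rab24 (0.957), Acot13 and Rab1a, and Gapdh most like Dcp2 (0.932), Samhd1 and Calr-ps. These correlations describe 12 points that share libraries and depth, and carry no test.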

How the data were processed

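Each of the 2 libraries, 1 per group as the labels give it, is a count matrix of genes and cell barcodes from the 10x Chromium 3′ kit v2. The deposited values are raw UMI counts per gene and barcode, whole numbers as checked. Cell Ranger 3.0.2, Seurat 3.0 and mm10 are named, without their role, per the submitters' processing notes. The choice of the deposited barcodes is not stated there.

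Gene names came from GENCODE M21 (GRCm38), which matched 52403 of 52636 IDs. Cells with under 500 genes (39 and 139) or over 20% mitochondrial UMIs were left out, as were 4 and 2 doublets called by Scrublet, so undetected doublets are possible. The libraries shared 2 barcodes. Clusters came from scanpy 1.11.5 and leidenalg 0.10.2 (2000 variable genes of each library joined, 30 components, 15 neighbours, resolution 1), without the members, the pathway lists and sex-linked genes. They were named from marker lists. The naming rule was revised after the clusters had been seen. The names fibroblast-like with smooth-muscle-like and enteroendocrine-like with islet-like were then also pooled into classes. In the main clusters only fibroblast-like and enteroendocrine-like of these names occurred. The members and all lists were chosen with earlier results of these data known.

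UMIs were summed per library and class and divided by the class total (counts per 1000000 UMIs, CPM). Ratios are Casp8-mutant over Mlkl-null with 0.5 UMI added. Intervals are exact Poisson for levels, conditional exact for ratios and Clopper-Pearson for shares. Calling genes by size was tested on simulated data. Named genes were all members, up to 3 highest and 3 lowest measured genes of each list, and the 3 genes with the most similar levels (at least 200 UMIs). Some genes that this rule picks are not reported here. Shared sequence was sought as exact windows of 90 bases in the last 500 bases of GENCODE coding transcripts. Motifs were counted on both strands in RefSeq promoters (GRCm38.p6). Alternatives changed scaling, filters, thresholds, thinning and clustering.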

Additional observations from a re-analysis of the deposited data

Results flagged for a closer look

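Ldha was at least 1.5-fold higher in Casp8-mutant in epithelial group E1 (1.57-fold, 1.35 to 1.83) and at least 1.5-fold lower in stromal-like cells (1.60-fold lower, 1.22 to 2.14). The log2 ratios differed by 1.33, and the pair was singled out because the subgroup and the stromal-like class passed the fold in opposite directions. Over the whole epithelial-like class the Ldha ratio was 0.93, and it was 1.01 in E3 and 0.87 in E4. With 1 embryo per group this difference was not tested.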

How the results depend on the processing

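Of 342 alternative values, 310 differed from the main value by less than its counting interval or kept the count within 1.5 times, 32 moved further and 0 reversed a called direction. The number of members higher went from 2 to 0 at a fold of 2, in epithelial-like and in all cells. In epithelial-like cells the number lower went from 4 to 3 at that fold, as Pfkl at 1.90-fold was no longer called, and to 5 with a minimum of 20 UMIs or none, as G6pc was then called. Over all cells the number higher went to 1 with no filter on genes per cell and to 1 with cells thinned to 2000 UMIs. In epithelial-like cells the number higher went to 1 within 10000 to 30000 CPM of enterocyte markers, an alternative chosen after seeing the data. No paired analysis was possible because each group is 1 library. Epithelial-like clusters without centring held nearly 1 library each and gave no ratio within a cluster. Scaling by the median of ratios shifted all genes by 0.01 (log2) in epithelial-like cells and 0.05 over all cells. At these depths, genes with few UMIs in Casp8-mutant, such as Pck1 with 14, Khk with 25 and Fbp1 with 28, have folds known only within wide limits, and nothing here measures the spread between embryos.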
